A study of Mus musculus with 6 samples.

Results

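A set of 10 genes that mark natural killer (NK) cells and their killing machinery were followed in normal-looking lung tissue. They were hand-picked, 10 of the 25860 genes in the deposited count table: the granule proteins Gzma, Gzmb, Prf1 and Nkg7, the surface receptors Ncr1, Klrb1c and Klrk1, the transcription factors Eomes and Tbx21, and the trafficking receptor S1pr5. RNA had been extracted from the lungs of 3 RAG1-/- mice (libraries 1 to 3) and 3 RAG1-/- Sgo1-/+ mice (libraries 4 to 6), all 12 months old and untreated, with 1 library for each sample. Both groups lacked both copies of RAG1, which is needed to assemble antigen receptors, and the second group had in addition lost 1 copy of Sgo1 (Shugoshin-1), which protects the cohesion of sister chromatids. Both alleles were carried in the germ line, so that neither loss was limited to the lung or to a cell type, and the mice came from an intercross in the second generation. The study asked how chromosome instability changes the lung when adaptive immunity is absent.

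NK cells are innate lymphocytes that do not need RAG1 to develop, and in mice without T and B cells they are a main lymphoid defence against altered cells. Activating receptors such as Ncr1 and Klrk1 bind ligands on the target cell, and granules are then released towards it. Perforin lets the granzymes enter the target, where they cleave proteins and set off cell death. Eomes and Tbx21 direct the maturation of NK cells, and S1pr5 guides their exit from bone marrow and lymph nodes into the blood and tissues. Several of the 10 genes, among them Gzmb, Prf1, Nkg7, Klrk1, Eomes and Tbx21, are also expressed by cytotoxic T cells, and S1pr5 by patrolling monocytes. In a whole-tissue sample, fewer cells of a type and less RNA per cell cannot be told apart.

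The start-site regions of 5 of the genes are printed because their transcripts carry most of the reads discussed below and they include both the gene with the lowest level relative to RAG1-/- (Gzma) and the gene with the highest (Klrk1). Each runs 5' to 3' on the gene's own strand from 250 bases before to 50 bases after the RefSeq start on GRCm38.p6. Capitals mark matches, on either strand, to the motifs AGGTGTGA (T-box), TGTGGT (RUNX), TGAGTCA (AP-1) or AGGAAG (ETS). The regions are Gzma at chr13:113100932-113101231 (minus strand), Gzmb at chr14:56262285-56262584 (minus), Ncr1 at chr7:4337465-4337764 (plus), Nkg7 at chr7:43436888-43437187 (plus) and Klrk1 at chr6:129623815-129624114 (minus).
Gzma: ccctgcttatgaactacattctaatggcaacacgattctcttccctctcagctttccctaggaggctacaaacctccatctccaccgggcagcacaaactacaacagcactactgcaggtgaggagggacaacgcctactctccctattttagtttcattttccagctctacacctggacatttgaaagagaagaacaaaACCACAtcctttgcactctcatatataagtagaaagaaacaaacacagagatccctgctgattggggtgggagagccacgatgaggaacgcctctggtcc
Gzmb: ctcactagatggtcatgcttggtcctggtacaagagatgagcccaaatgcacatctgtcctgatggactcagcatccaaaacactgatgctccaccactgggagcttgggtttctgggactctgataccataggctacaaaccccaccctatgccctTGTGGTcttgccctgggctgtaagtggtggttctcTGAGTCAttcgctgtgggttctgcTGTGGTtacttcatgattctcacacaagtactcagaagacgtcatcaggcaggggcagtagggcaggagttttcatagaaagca
Ncr1: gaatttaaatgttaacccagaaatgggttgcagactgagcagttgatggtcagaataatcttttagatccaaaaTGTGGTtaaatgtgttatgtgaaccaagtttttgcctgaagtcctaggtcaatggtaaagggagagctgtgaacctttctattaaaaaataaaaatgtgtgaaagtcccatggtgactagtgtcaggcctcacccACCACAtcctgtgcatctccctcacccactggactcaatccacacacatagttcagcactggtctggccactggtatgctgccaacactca
Nkg7: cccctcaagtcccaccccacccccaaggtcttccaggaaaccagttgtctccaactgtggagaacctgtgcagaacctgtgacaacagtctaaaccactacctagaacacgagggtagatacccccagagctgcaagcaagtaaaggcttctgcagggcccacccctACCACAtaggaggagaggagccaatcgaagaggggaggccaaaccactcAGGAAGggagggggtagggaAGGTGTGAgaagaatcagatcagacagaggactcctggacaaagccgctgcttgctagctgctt
Klrk1: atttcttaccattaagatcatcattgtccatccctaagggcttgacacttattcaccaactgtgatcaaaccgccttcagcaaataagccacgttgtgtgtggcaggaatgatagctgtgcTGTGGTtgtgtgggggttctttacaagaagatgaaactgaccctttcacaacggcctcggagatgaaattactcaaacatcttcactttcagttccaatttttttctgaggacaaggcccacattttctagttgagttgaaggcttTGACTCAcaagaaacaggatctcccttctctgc
No match in the 5 printed regions shares a base with a match to another motif. TGTGGT was found at 7 of the 10 genes (Gzma, Gzmb, Prf1, Ncr1, Klrb1c, Klrk1 and Nkg7), and 18.9% of the 27025 genes searched had it in a window of the same length. AGGTGTGA was found at Nkg7 alone, and 1.48% of all genes had it. TGAGTCA was found at Gzmb and Klrk1 (5.95% of all genes), and AGGAAG at Prf1, Klrb1c, Nkg7 and Tbx21 (38.4% of all genes). Eomes and S1pr5 held none of the 4 motifs in this window. The motifs were chosen after the values were known, and a match is a description of letters only.

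Total counts were 9366774, 4949415 and 6608063 in libraries 1 to 3 and 4950007, 5398576 and 3205822 in libraries 4 to 6. A count of 3, taken as the floor of detection, equalled 0.320 CPM (reads of a gene in each 1e+06 reads of its library) in library 1 and 0.936 CPM in library 6. The 8 lung epithelial markers summed to between 77247 and 98977 CPM in every library. Library 2, labelled RAG1-/-, held 1853 reads of the antibody light chain Igkc against 0 to 8 elsewhere, and 34 reads of the T cell gene Cd8a, which was at 12 in library 6 and at 0 in the other libraries. Library 2 therefore went against its label. Library 6, labelled RAG1-/- Sgo1-/+, also went against its label by its Cd8a reads, though it had 0 reads of Igkc. The fits of the 10 genes are given with and without library 2, and without libraries 2 and 6 together. Sums, ratios and shares are given for each library, libraries 2 and 6 included. Library 6 stood apart with 737 reads of Arg1 against 7 to 20, and library 1 was alone in carrying Xist (7717 reads against 4 to 8), with 2 reads of Ddx3y against 342 to 1228. By the reads of Xist and Ddx3y, library 1 came from a female and the others from males, so sex was not balanced between the groups. The labels do not give the sex. The reads of Sgo1 numbered 6, 2 and 4 against 6, 0 and 2, and those of Rag1 24, 10 and 16 against 12, 8 and 8. These counts could not check either genotype, because the labels do not say which part of a gene was altered and Sgo1 was at or near the floor.

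All 10 genes passed the filter of 10 reads summed over the libraries, but they were read thinly, with 38 (Tbx21) to 506 (Gzma) reads in all against a median of 671 over the 17231 genes tested. The fitted level was lower in RAG1-/- Sgo1-/+ for 8 of the 10, and 45.1% of all tested genes were lower. Their median log2 fold change was -0.81, beside 0.03 over all tested genes. A reduction of at least 2-fold was fitted for 3 of them, Gzma, Eomes and S1pr5, a size reached by 3.08% of all tested genes. None was called at an adjusted P of 0.05 and a 2-fold difference, and neither was any other gene (0% of those tested, smallest adjusted P=0.832), whereas 976 genes (5.66%) had an unadjusted P under 0.05 in the same quasi-likelihood test of edgeR. The Wald test of DESeq2 called 1 gene and the exact test of edgeR 0, neither of them among the 10. Only Gzma was lower at an unadjusted P under 0.05, a mark passed in that direction by 2.52% of all tested genes and in the other by 3.15%. Only Eomes had groups that did not overlap, and 5.54% of all tested genes were apart in that direction and 6.24% in the other.

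**Figure D1:**
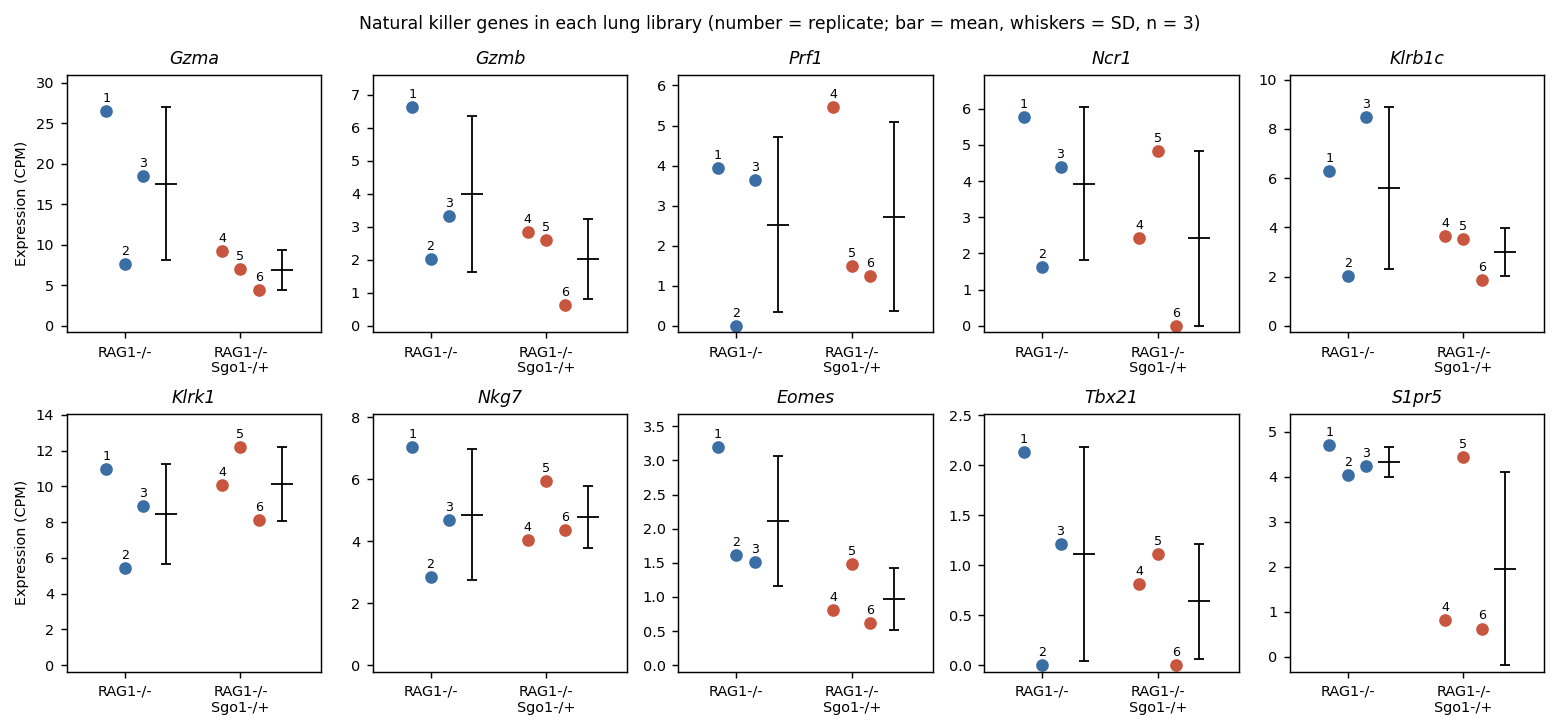
Expression in CPM (linear axis that includes 0 and starts under it) of each of the 10 genes in each library, with RAG1-/- in blue, RAG1-/- Sgo1-/+ in red, the replicate number above each point and the mean with SD (n = 3) beside it. Library 1 is the highest for 7 of the genes, library 6 is the lowest or tied for the lowest for 7, and Eomes alone has no overlap between the groups.

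Gzma encodes granzyme A, a trypsin-like protease, and had the most reads of the 10 over the 6 libraries. There were 248, 38 and 122 in libraries 1 to 3 and 46, 38 and 14 in libraries 4 to 6, which is 26.5, 7.68 and 18.5 CPM against 9.29, 7.04 and 4.37 CPM. Libraries 1 and 3 were above every RAG1-/- Sgo1-/+ library, and library 2 lay among them. The mean was 17.5 ± 9.43 CPM (SD, n = 3) in RAG1-/- and 6.90 ± 2.47 CPM in RAG1-/- Sgo1-/+, a fitted 2.52-fold lower level (log2 fold change -1.34, SE 0.43, 95% interval -2.29 to -0.38, edgeR P=0.0108, adjusted P=0.832, exact permutation P=0.2). Gzmb encodes granzyme B, which cleaves after aspartate and activates caspases. Its reads were 62, 10 and 22 against 14, 14 and 2, or 6.62, 2.02 and 3.33 CPM against 2.83, 2.59 and 0.624 CPM. Library 1 was the highest, and the groups overlapped through library 2. The log2 fold change was -0.95 (SE 0.60, 95% interval -2.29 to 0.39, adjusted P=0.848).

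Prf1, the gene of perforin, followed neither granzyme. It had 37, 0 and 24 reads against 27, 8 and 4, which is 3.95, 0 and 3.63 CPM against 5.45, 1.48 and 1.25 CPM. The highest library was number 4, a RAG1-/- Sgo1-/+ sample, and library 2 had no read, where 3 reads would have been 0.606 CPM. The log2 fold change was 0.08 (SE 0.92, 95% interval -1.97 to 2.13, adjusted P=0.993), so a reduction or an increase of several-fold lies within the interval. Nkg7, a membrane protein of the granule that takes part in its release, had 66, 14 and 31 reads against 20, 32 and 14. In CPM these were 7.05, 2.83 and 4.69 against 4.04, 5.93 and 4.37, and all 3 RAG1-/- Sgo1-/+ libraries lay within the range of RAG1-/-. Its log2 fold change was -0.04 (SE 0.41, 95% interval -0.95 to 0.86, adjusted P=0.992).

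Among the receptors, Ncr1 encodes NKp46, the activating receptor most widely used to define NK cells across mouse strains. It had 54, 8 and 29 reads against 12, 26 and 0, or 5.77, 1.62 and 4.39 CPM against 2.42, 4.82 and 0 CPM. Library 5 stood between libraries 1 and 3, and the 0 in library 6 allows up to 0.936 CPM. The log2 fold change was -0.64 (SE 0.79, 95% interval -2.39 to 1.11, adjusted P=0.908). Klrb1c encodes NK1.1, the antigen by which NK cells of some strains are stained. It had 59, 10 and 56 reads against 18, 19 and 6, which is 6.30, 2.02 and 8.47 CPM against 3.64, 3.52 and 1.87 CPM. Libraries 1 and 3 were above all RAG1-/- Sgo1-/+ libraries, and library 2 was not. The log2 fold change was -0.88 (SE 0.52, 95% interval -2.04 to 0.28, adjusted P=0.840). Klrb1c is uncertain, since 17.0% of its exonic 50-base words occur in other genes (Klrb1a, Klrb1b and Gm44511), and its neighbour Klrb1b had 80, 30 and 78 reads against 56, 156 and 30.

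Klrk1 encodes NKG2D, the receptor for stress-induced ligands on damaged and transformed cells. Its reads numbered 103, 27 and 59 against 50, 66 and 26, which is 11.0, 5.46 and 8.93 CPM against 10.1, 12.2 and 8.11 CPM. Its highest library was number 5, and the groups overlapped. The mean was 8.46 ± 2.80 CPM (SD, n = 3) against 10.1 ± 2.06 CPM, with the narrowest error of the 10 genes (log2 fold change 0.25, SE 0.31, 95% interval -0.43 to 0.94, adjusted P=0.907). At this precision a reduction as large as the point estimate of Gzma lay outside the interval of Klrk1. The intervals themselves overlapped, since that of Gzma was -2.29 to -0.38.

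Both T-box transcription factors were close to the floor. Eomes, which is required for mature NK cells, had 30, 8 and 10 reads against 4, 8 and 2, or 3.20, 1.62 and 1.51 CPM against 0.808, 1.48 and 0.624 CPM. The groups were apart, but the lowest RAG1-/- library and the highest RAG1-/- Sgo1-/+ library differed by 10 reads against 8. The log2 fold change was -1.08 (SE 0.64, 95% interval -2.52 to 0.35, adjusted P=0.840, exact permutation P=0.1, the smallest that 10 splits can give). Of its exonic 50-base words 2.10% occur in other genes, mainly the overlapping Gm33460. Tbx21, the gene of T-bet, had 20, 0 and 8 reads against 4, 6 and 0, and it was at 0 in library 2 of RAG1-/- and in library 6 of RAG1-/- Sgo1-/+. Its log2 fold change of -0.75 had the widest error of the 10 genes (SE 1.13, 95% interval -3.27 to 1.77, adjusted P=0.934).

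S1pr5, a receptor for sphingosine 1-phosphate, had close values in RAG1-/- and divided ones in RAG1-/- Sgo1-/+. It had 44, 20 and 28 reads against 4, 24 and 2, which is 4.70, 4.04 and 4.24 CPM against 0.808, 4.45 and 0.624 CPM. Library 5 was within the narrow range of RAG1-/-, and libraries 4 and 6 were far under it. The mean was 4.33 ± 0.337 CPM (SD, n = 3) against 1.96 ± 2.16 CPM (log2 fold change -1.06, SE 0.64, 95% interval -2.48 to 0.36, adjusted P=0.840). Without library 5 the log2 fold change was -2.54 and was past an unadjusted P of 0.05 in edgeR, with an adjusted P=0.867.

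**Figure D2:**
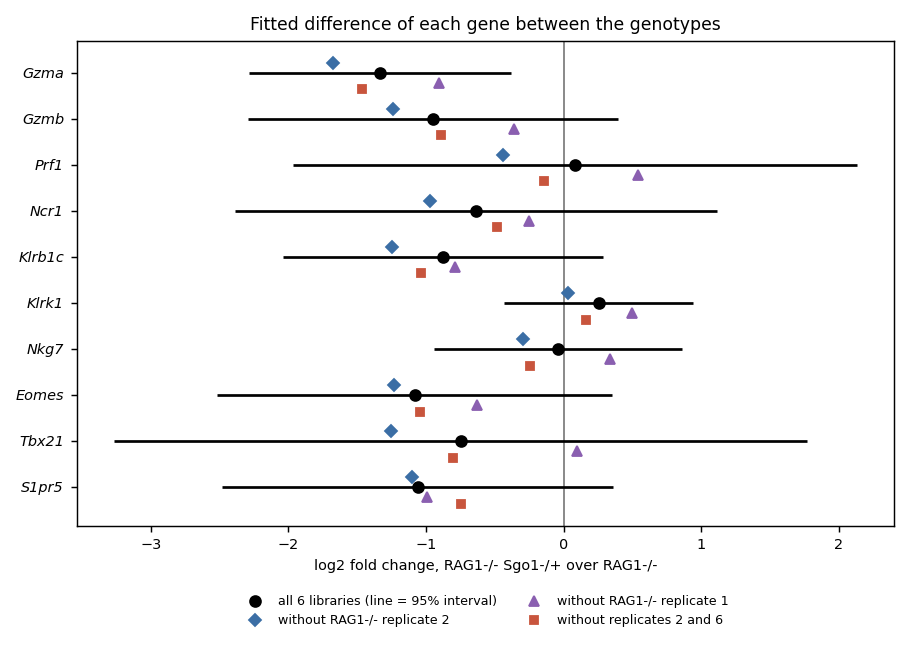
Fitted log2 fold change of each gene, RAG1-/- Sgo1-/+ over RAG1-/-, from all 6 libraries (black, line for the 95% interval) and without library 2, library 1, or libraries 2 and 6. Only the interval of Gzma excludes 0, and leaving out library 2 moves each of the 10 values downwards, by the least for S1pr5.

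Library 2 and library 1 pulled the comparison in opposite directions. Without library 2, which carries B and T cell transcripts, 9 of the 10 genes were lower, their median log2 fold change was -1.17, and 5 of them had groups apart (Gzma, Gzmb, Klrb1c, Eomes and Tbx21), beside 8.82% of all genes tested in those 5 libraries. Gzma (log2 fold change -1.68) and Klrb1c (-1.25) then had an unadjusted edgeR P under 0.05, a mark passed in that direction by 1.69% of all tested genes, but the adjusted P of both was 0.987. Without libraries 2 and 6 the same counts were 9 lower, 5 apart (beside 15.3% of all tested genes) and 2 under the unadjusted mark (beside 1.91%), with a median of -0.78. Without library 1, the deepest and the only one that read as female, 6 were lower, none reached an unadjusted P of 0.05 in edgeR, and the median was -0.31. Depth and sex cannot be told apart in library 1. Gzma was lower in every such fit, with a log2 fold change between -1.68 and -0.91.

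The libraries were ordered alike for most of the genes. Library 1 was the highest for 7 of the 10 and among the top 2 for all of them, while library 6 had 5 of the genes at 3 reads or fewer and library 2 had 2. The sum over the 10 genes was 77.2, 27.3 and 58.9 CPM in RAG1-/- and 40.2, 44.6 and 21.8 CPM in RAG1-/- Sgo1-/+. This gave a mean of 54.4 ± 25.2 CPM (SD, n = 3) against 35.6 ± 12.1 CPM, and the groups overlapped through library 2 alone (exact permutation P=0.3 over all libraries). The summed level ran in the same order as the depth of the libraries, although CPM are already scaled to depth. Of 14640 genes with at least 60 reads, 16 (0.109%) had CPM in that exact order and 32 (0.219%) in the reverse, and none of the 9 natural killer genes with as many reads did so by itself. Libraries 4 and 2 had nearly the same depth (4950007 and 4949415 counts) and differed in the sum, at 40.2 and 27.3 CPM. The parts of depth and of sex in the difference between the groups were not tested.

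**Figure D3:**
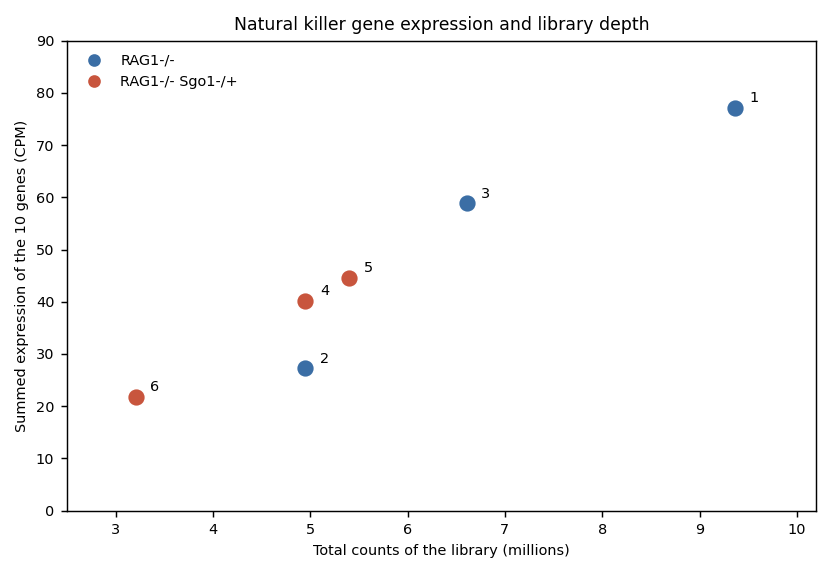
Summed expression of the 10 genes in CPM against the total counts of each library (axis in units of 1e+06), both axes linear, with the replicate number beside each point. The sum climbs from 21.8 CPM in library 6 to 77.2 CPM in library 1 in the order of depth, and libraries 2 and 4 sit at nearly the same depth with 27.3 and 40.2 CPM.

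Leukocyte content was set beside the sum. The 5 pan-leukocyte markers summed to 411, 475 and 420 CPM in RAG1-/- and 341, 462 and 769 CPM in RAG1-/- Sgo1-/+. For each 100 CPM of them the natural killer genes had 18.8, 5.74 and 14.0 CPM against 11.8, 9.66 and 2.84 CPM, which overlapped (12.8 ± 6.60 against 8.10 ± 4.68, SD, n = 3, exact permutation P=0.4). Ptprc, the gene of CD45, was at 83.8, 104 and 95.5 CPM against 54.7, 97.1 and 92.3 CPM. For each 100 CPM of Ptprc the values were 92.1, 26.3 and 61.6 against 73.4, 46.0 and 23.6 (exact permutation P=0.7). The groups overlapped on both scales, on the first through library 2 alone. As the log2 of RAG1-/- Sgo1-/+ over RAG1-/- by group means, the first scale gave -0.67. It gave -0.29, -1.02 and -0.60 without library 1, 2 or 3, and -1.04, -0.81 and -0.26 without library 4, 5 or 6.

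The shares of Gzma and Klrk1 among the reads on the 10 genes separated the groups, whereas the sum overlapped through library 2 alone. These genes had the lowest and the highest fitted log2 fold change of the 10, so the separation is not independent of the fits. Gzma took 34.3, 28.1 and 31.4% of the reads on the 10 genes in libraries 1 to 3 and 23.1, 15.8 and 20.0% in libraries 4 to 6, so the groups did not overlap (31.3 ± 3.08% against 19.6 ± 3.69%, SD, n = 3, exact permutation P=0.1). Library 2 lay with the other RAG1-/- libraries here, though its interval was wide (28.1%, 95% Wilson interval 21.2 to 36.3%) and met that of library 4 (17.8 to 29.4%). Klrk1 took 14.2, 20.0 and 15.2% against 25.1, 27.4 and 37.1%, again without overlap (16.5 ± 3.09% against 29.9 ± 6.39%, exact permutation P=0.1). Because shares of a whole are tied to each other, Klrk1 was also taken as a share of the reads other than Gzma, and it was at 21.7, 27.8 and 22.1% against 32.7, 32.5 and 46.4%.

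There were 2.41, 1.41 and 2.07 Gzma reads for each Klrk1 read in RAG1-/- and 0.920, 0.576 and 0.538 in RAG1-/- Sgo1-/+, which is 2.89-fold fewer by the means of the ratio (exact permutation P=0.1). A ratio within a library shows unequal levels and not which gene differed. The 3 receptors together took 29.9, 33.3 and 37.0% against 40.2, 46.1 and 45.7% (exact permutation P=0.1), whereas the granzymes with perforin (P=0.3) and the transcription factors (P=0.2) overlapped by the same exact permutation test. These 7 shares and ratios were chosen after the values were seen, 0.1 is the smallest P the design allows, and the smallest adjusted over the 7 was 0.14 by the exact permutation test.

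**Figure D4:**
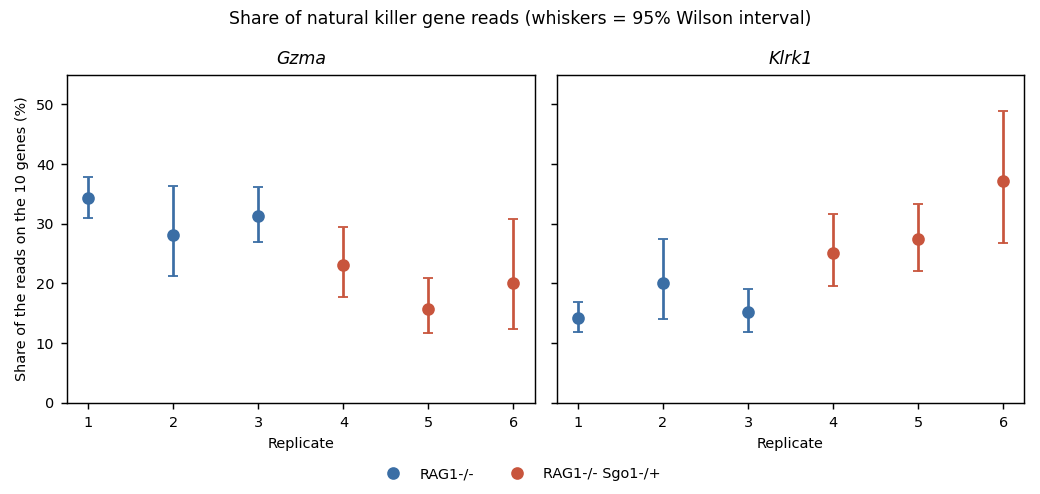
Share of the reads on the 10 genes that lay on Gzma (left) and on Klrk1 (right) in each library, in percent on a linear axis from 0, with 95% Wilson intervals that cover counting error only. The Gzma share is 28.1 to 34.3% in RAG1-/- and 15.8 to 23.1% in RAG1-/- Sgo1-/+, and the Klrk1 share is 14.2 to 20.0% and 25.1 to 37.1%.

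Levels between genes were compared per kilobase of exon. In RAG1-/- Gzma was the highest at 17.4 CPM per kb, followed by Nkg7 at 5.51, Gzmb at 2.78, Ncr1 at 2.55, Klrk1 at 2.46, Klrb1c at 2.13, S1pr5 at 1.73, Prf1 at 0.978, Eomes at 0.572 and Tbx21 at 0.448 CPM per kb. Only the steps from Gzma to Nkg7 and from Nkg7 to Gzmb exceeded the larger SD of their neighbours, and Gzma was above Nkg7 in 5 of 6 libraries. The 4 genes from Gzmb to Klrb1c did not differ from their neighbours beyond their spread, nor did the 4 lowest. In RAG1-/- Sgo1-/+ Gzma was at 6.86 and Nkg7 at 5.42 CPM per kb, Klrk1 came next at 2.96, and Eomes (0.263) and Tbx21 (0.257) were again the lowest.

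The other genes of the NK program were read from lists. Of 13 other cytotoxic granule genes tested (20 listed), none had an unadjusted P under 0.05 in edgeR, 7 were lower and the median log2 fold change was -0.01. Of 21 other NK receptors and adaptors tested (24 listed), 1 was higher at that mark, Fcgr3, an Fc receptor that myeloid cells also express (296, 118 and 192 reads against 138, 191 and 296, log2 fold change 0.85, adjusted P=0.832, edgeR), and 7 were lower, with a median of 0.38. Fcgr3 was at 92.3 CPM in library 6 and at 23.8 to 35.4 CPM elsewhere, and at that mark the list had 1 gene lower and 0 higher without library 2, and 2 lower and 1 higher without libraries 2 and 6. The Ly49 receptors, which read MHC class I on the target, had 7 of 11 tested, 2 lower at the unadjusted mark, 6 lower in all and a median of -0.52. They were Klra3 (17, 13 and 12 reads against 4, 4 and 2) and Klra9 (22, 4 and 14 against 2, 4 and 0), with log2 fold changes of -1.47 and -2.03. Ly49 genes share sequence, so reads can be split between them.

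Of 10 NK transcription factors other than Eomes and Tbx21, 2 were lower at the unadjusted mark (1 without library 2), 7 were lower in all and the median was -0.24. Prdm1, the gene of Blimp-1, which acts in the maturation of NK cells and in many other cell types, had 164, 96 and 146 reads against 50, 58 and 42. In CPM these were 17.5, 19.4 and 22.1 against 10.1, 10.7 and 13.1, so that every RAG1-/- library, library 2 included, was above every RAG1-/- Sgo1-/+ library (log2 fold change -0.80, SE 0.20, edgeR adjusted P=0.832). Ets1, which acts early in the lymphoid lineages, was at 142, 189 and 173 CPM against 130, 134 and 109 CPM (log2 fold change -0.43, SE 0.15, adjusted P=0.832, edgeR). Of 9 cytokine and chemokine genes of NK cells tested, none had an unadjusted P under 0.05 in edgeR, 5 were lower and the median was -0.10. Of 6 ligands of NK receptors tested (12 listed), 1 was lower at the unadjusted mark, Clec2d (log2 fold change -0.42, adjusted P=0.832, edgeR), and the median was 0.07. The ligands summed to 482, 456 and 528 CPM against 419, 455 and 372 CPM, just without overlap (exact permutation P=0.1). Most of that sum lay on Clec2d (331, 315 and 372 CPM against 252, 308 and 199 CPM). Of the 6 tested ligands 2 were lower, so the sum does not stand for the list. No gene of these lists was called after adjustment. Groups were apart downwards for 0 of 13 other granule genes, 2 of 21 other receptors and adaptors and 2 of 7 Ly49 receptors. For the transcription factors, cytokines and ligands this held for 3 of 10, 1 of 9 and 1 of 6. Upwards it was 1 granule gene and 0 in each other list. Of all tested genes 5.54% were apart downwards and 6.24% upwards.

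Markers of other cells moved with some of these values. The 10 T cell markers summed to 7.26, 36.8 and 4.99 CPM in RAG1-/- and 6.06, 6.85 and 25.3 CPM in RAG1-/- Sgo1-/+, so they were highest in libraries 2 and 6, where the sum of the natural killer genes was lowest. Of the 10, 8 were over 3 reads in library 2 and 7 in library 6, against 2 to 4 in the other libraries, and Cd3e had 2, 12 and 0 reads against 0, 9 and 11. The B and plasma cell markers summed to 928 CPM in library 2 and to between 21.1 and 34.3 CPM elsewhere, and 5 of 9 tested were lower in RAG1-/- Sgo1-/+ at the unadjusted mark with all libraries and 0 of 4 without library 2. The 8 neutrophil markers summed to 132, 79.6 and 111 CPM against 28.9, 65.9 and 59.3 CPM, without overlap (exact permutation P=0.1), and 3 of 7 tested (2 without library 2) were lower at the unadjusted mark, namely S100a9 (log2 fold change -1.43), S100a8 (-1.23) and Csf3r (-0.65). Much of that sum lay on S100a9 (50.3, 32.3 and 48.9 CPM against 8.28, 26.3 and 13.7 CPM) and S100a8. S100a8 overlapped (44.7, 20.2 and 33.9 CPM against 5.86, 16.7 and 20.6 CPM). Of the 7 tested, 6 were lower, 2 had groups apart downwards and 0 upwards (beside 5.54% and 6.24% of all tested genes). The patrolling monocyte markers, which bear on S1pr5, had 1 of 8 lower at that mark (Nr4a1, -1.65), 6 lower in all and sums of 473, 455 and 541 CPM against 379, 422 and 355 CPM, without overlap (exact permutation P=0.1). Most of that sum lay on Ace, which overlapped (336, 342 and 278 CPM against 300, 341 and 262 CPM). Much of the rest lay on Nr4a1 (85.8, 61.8 and 212 CPM against 43.4, 27.2 and 44.6 CPM), so the sum does not stand for the list.

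The remaining lists held few genes past the unadjusted mark. The ILC1 markers, which NK cells partly share, summed to 519 to 529 CPM in RAG1-/- and 553 to 694 CPM in RAG1-/- Sgo1-/+, with no overlap (exact permutation P=0.1) and with 0 of 7 under an unadjusted P of 0.05 in edgeR. Most of that sum lay on Tmem176b (315, 315 and 335 CPM against 348, 364 and 419 CPM) and Tmem176a (150, 129 and 128 CPM against 141, 139 and 185 CPM). Of the 7 genes, 1 had groups apart upwards and 1 downwards (beside 6.24% and 5.54% of all tested genes), so the sum does not stand for the list. The plasmacytoid dendritic cell markers summed to 210, 245 and 225 CPM against 207, 200 and 186 CPM, also without overlap (exact permutation P=0.1). Most of that sum lay on Tcf4 (172, 207 and 188 CPM against 169, 167 and 144 CPM), and 4 of the 7 genes were lower. The ILC2 markers summed to 58.4 to 89.3 CPM in libraries 1 to 5 and 298 CPM in library 6, where Arg1 alone was at 230 CPM. Mast cell and basophil markers (0 of 5 tested at the unadjusted mark), plasmacytoid dendritic cell markers (0 of 7), lung endothelial markers (0 of 6) and pan-leukocyte markers (0 of 5) had no gene past it in edgeR, and lung epithelial markers had 1 of 8, Foxj1 (log2 fold change 0.58). The part of these cells in the values of the natural killer genes was not tested.

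**Figure D5:**
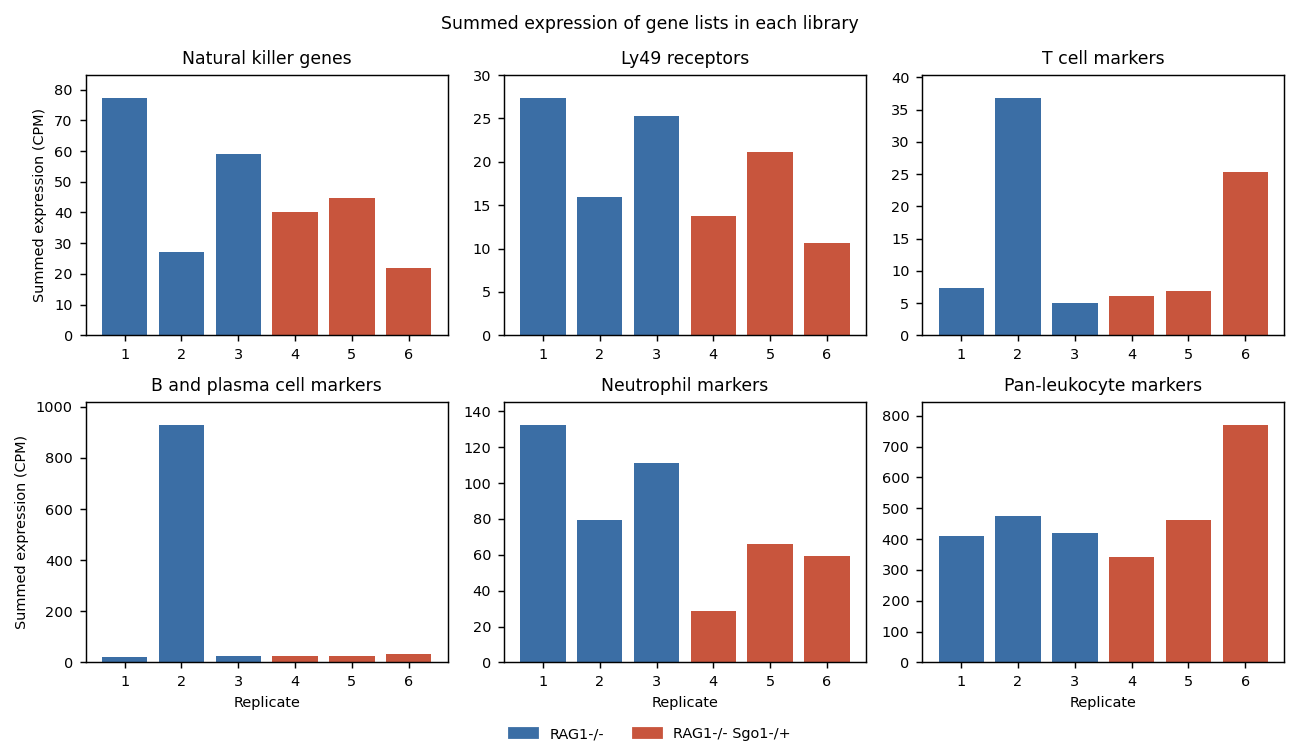
Summed CPM of 6 gene lists in each library, as bars from 0 with a separate linear axis for each list, RAG1-/- in blue and RAG1-/- Sgo1-/+ in red. The natural killer genes and the Ly49 receptors are lowest in library 6, the T cell markers are highest in libraries 2 and 6, and the neutrophil markers do not overlap between the groups.

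The genes whose log2 CPM followed the mean standardised profile of the 10 most closely were Unc79 (r = 0.99), Sult2b1 (0.98), Nacad (0.98), Aldh9a1 (0.98) and Myrip (0.98), by Pearson correlation over the 6 libraries among 14631 genes with at least 60 reads. None of them is on the lists of NK genes, and 21 genes reached 0.95. Unc79 had 23.5, 7.07 and 15.6 CPM against 13.3, 14.8 and 5.61 CPM. The mean profile of the 10 and each of these 5 genes ran in the order of library depth, as did the sum of the 10. Of 14640 genes with at least 60 reads, 0.109% had that order. The part of depth in these correlations was not tested. The closest NK genes were Klra8 (r = 0.94, rank 28), Klri2 (0.92, rank 55) and Klre1 (0.91, rank 60). The points are the same 6 libraries in both, with their groups and depths, and the correlations are a description.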

How the data were processed

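RNA-seq libraries were made from total RNA of lung with the TruSeq V2 kit and sequenced in pairs on a MiSeq. The authors deposited whole-number read counts per Entrez gene, made with GeneSifter on an earlier mouse genome build named in the file header. BWA and edgeR are named in the submitters' processing notes. The treatment of reads with several matches and of strand is not given in the sources used here. Each library has 2 columns that hold the same values, so only the first of each pair was read. A second deposited table holds the authors' own comparison (group means, ratios and p-values) and was not used. Symbols were matched for 24048 of 25860 genes (93%) through RefSeq (GRCm38.p6). Exon lengths and 50-base words came from GENCODE on GRCm38, and no gene coordinates are given on the build of the counts. All 10 genes had a promoter entry.

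Genes with at least 10 counts over the 6 libraries were tested with glmQLFit and glmQLFTest of edgeR 4.0.16 in R 4.3.3, with total count as library size and a prior count of 0.125. A call needed a Benjamini and Hochberg adjusted P under 0.05 over all tested genes and at least a 2-fold difference. The SE is the log2 fold change over the square root of F. Exact permutation tests were two-sided with 10 splits (smallest P 0.1, scipy 1.17.1). Wilson intervals and the floor of 3 counts cover counting error only. Nothing in the labels describes the animals beyond genotype and age, so P measures the spread between these samples. The model was tested on simulated data with the same extra spread for every gene and changes only in genes of at least 60 reads. That setting does not stand for the 10 genes, of which Tbx21 had 38 reads in all. Of the 60 counts of the 10 genes, 51 were even, and counts divided by 2 were tried. Whether both reads of a pair were counted is not given in the sources used here. If they were, the Wilson intervals are too narrow and 3 counts stand for fewer fragments. Alternatives were TMM scaling, DESeq2 (1.42.0) size factors and Wald test, the exact test of edgeR, 2 other filters, and leaving out libraries.

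The 10 genes and all lists were chosen with earlier results of these data known. The genes named are the 10, up to 4 genes of each other list at an unadjusted P under 0.05, Klra3 and Klra9, Ptprc, checks on the libraries (Igkc, Cd3e, Cd8a, Xist, Ddx3y, Sgo1, Rag1) and the 5 genes of closest profile. Arg1, Klrb1b, Klra8, Klri2, Klre1, Ace, Tmem176a, Tmem176b, Tcf4, Lamp1 and Ctsc were added after their values were seen.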

Additional observations from a re-analysis of the deposited data

How the results depend on the processing

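The signs of Gzma, Gzmb, Ncr1, Klrb1c, Klrk1, Eomes and S1pr5 were the same under every alternative in which they were tested. Nkg7 turned higher without replicate 1, 4 or 6 (log2 fold change 0.34, 0.07 and 0.01, range -0.30 to 0.34 over single left-out libraries). Tbx21 turned higher without replicate 1 (0.10, range -1.32 to 0.10). Prf1 turned lower without replicate 2 (-0.44), without replicate 4 (-0.91, range -0.91 to 0.54) and without replicates 2 and 6 together (-0.14). The number of the 10 genes lower at an unadjusted edgeR P under 0.05 ranged from 0 (without replicate 1, beside 3.44% of all tested genes) to 2 (without replicate 2 or 5, beside 1.69% and 2.57%) and was 2 without replicates 2 and 6 (1.91%). The number with groups apart ranged from 0 to 5. It was 5 without replicate 2 (beside 8.82% of all tested genes), 2 without replicate 4 or 5 (11.1% and 10.6%) and 5 without replicates 2 and 6 (15.3%). It was 0 with the filterByExpr filter of edgeR, which dropped Eomes and Tbx21. Genes called over the whole table numbered 1 by the Wald test of DESeq2 (Awat1) and 0 to 1 with single libraries left out, the 1 without replicate 5 (H2-K1). The median of the 10 genes stayed between -1.23 and -0.31, and TMM scaling moved it to -0.84. Without library 2, or without 2 and 6, a choice made after seeing the data, 5 and 4 T cell markers passed the filter in place of 8, with a median log2 fold change, genes at the floor entered at their bound, of 1.69 and 0.25 in place of -0.69, and the other NK receptors had a median of 0.24 and -0.12 in place of 0.38. No paired analysis was possible because the groups share no replicate numbers. In library 6, 5 of the 10 genes were at 3 reads or fewer.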
